A study of Rattus norvegicus with 4 samples.

Results

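The genes described here are those of the contractile actin cytoskeleton together with the CCN1 and CCN2 matricellular genes, measured in cultured rat oligodendrocyte precursor cells. They form a named list of 10 genes: Ccn1 (older name Cyr61), Ccn2 (older name Ctgf), Tagln, Acta2, Cnn1, Cnn2, Tpm1, Tpm2, Tpm4 and Myl9. Probes were found by pairing the array's transcript identifiers with current RefSeq symbols. In this way 14 of the array's 45598 probes were found for 9 of the 10 genes, and no probe could be paired with Cnn2, which is not analysed here. The genes were selected on their function with the changes measured in the comparison below already known, so their values are given as a description and nothing is tested with them.

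Expression was measured on 1 single-colour Agilent array per sample. The first group, miR-125a-3p, was 2 samples of precursor cells transfected with a mimic of that microRNA, and the second, miR-neg, was 2 samples transfected with a negative control RNA. All 4 shared the rest of their handling. The protocols in the labels say that cells were isolated from rat cortex at postnatal day 2, kept with bFGF and PDGF for 3 days, and given the RNA at 50 nM with a lipid reagent. Total RNA was taken 48 h later. The labels do not say whether the samples of a group came from separate animals or cultures, so the spread between them may be technical. The title calls the cells precursors and the cell type label says oligodendrocytes. Of 10 precursor markers fixed for this check, 9 were tested, and all 9, among them Pdgfra, Olig2 and Sox10, gave a signal well above background on each of the 4 arrays.

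The arrays had 28138 and 26902 probes well above background for miR-125a-3p, and 26332 and 26822 for miR-neg, with 0 saturated spots. All 4 lay on 1 slide in 1 scan. Position along one axis of the slide followed the group, so that position and group cannot be told apart, and position along the other axis followed the replicate number. The number of arrays limits the precision of every value below.

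In muscle and in fibroblasts, tension on the actin cytoskeleton is read out by a pair of transcriptional systems. Serum response factor with its MRTF cofactors acts at the CArG box and drives genes of the contractile apparatus such as Acta2, Tagln and Cnn1, and YAP and TAZ with the TEAD factors drive Ccn1 and Ccn2. Precursors of oligodendrocytes are sensitive to the stiffness of their surroundings, and actin is assembled and then taken apart as they mature into myelinating cells.

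The mature rat miR-125a-3p of RefSeq (GRCr8, chr1:67350727-67350748, plus strand) is shown because it is the sequence that the mimic is named after. The labels do not give the mimic's own sequence. Capitals mark the seed, bases 2 to 8.
rno-miR-125a-3p: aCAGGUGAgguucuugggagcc

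The RefSeq promoter table (GRCr8) held 8 of the 10 genes, all but Tagln and Myl9. The 250 bases before the start of 4 of them are shown because they hold the core hexamer read by TEAD factors, GGAATG or its reverse complement CATTCC. Capitals mark that hexamer and the TATAAA box. The Tpm1 window lies almost wholly inside the annotated gene, so the start used there is an internal one. The same holds for Tpm2, whose window is counted below but not shown. The windows are chr1:22624615-22624864, minus strand for Ccn2, chr2:237225690-237225939, minus strand for Ccn1, chr1:241172504-241172753, minus strand for Acta2 and chr8:76543416-76543665, minus strand for Tpm1.
Ccn2: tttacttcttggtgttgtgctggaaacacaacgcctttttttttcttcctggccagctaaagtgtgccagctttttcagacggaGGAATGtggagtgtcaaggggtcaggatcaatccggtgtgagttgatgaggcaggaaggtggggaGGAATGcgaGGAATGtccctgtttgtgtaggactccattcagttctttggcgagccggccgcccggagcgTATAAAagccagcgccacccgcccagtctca
Ccn1: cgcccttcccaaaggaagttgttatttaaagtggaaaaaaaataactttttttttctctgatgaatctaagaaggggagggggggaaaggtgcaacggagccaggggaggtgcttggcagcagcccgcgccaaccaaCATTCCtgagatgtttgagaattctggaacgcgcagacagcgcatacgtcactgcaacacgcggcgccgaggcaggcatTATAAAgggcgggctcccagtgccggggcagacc
Acta2: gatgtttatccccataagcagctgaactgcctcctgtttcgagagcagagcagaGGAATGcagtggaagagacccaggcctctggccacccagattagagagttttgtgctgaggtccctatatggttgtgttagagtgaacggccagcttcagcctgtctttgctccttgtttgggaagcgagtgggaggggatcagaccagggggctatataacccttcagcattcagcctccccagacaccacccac
Tpm1: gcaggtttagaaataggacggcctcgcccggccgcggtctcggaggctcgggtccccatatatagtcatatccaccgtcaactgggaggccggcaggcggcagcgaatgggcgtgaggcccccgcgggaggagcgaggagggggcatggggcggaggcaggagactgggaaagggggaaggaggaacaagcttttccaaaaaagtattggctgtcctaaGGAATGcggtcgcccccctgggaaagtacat

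Ccn2 held the hexamer 3 times within its 250 bases, and Ccn1, Acta2 and Tpm1 held it once each. Searched on both strands, it was present in 4 of the 8 windows, against 12.1% of 33469 rat promoter windows of the same length. TATAAA, searched on the gene's own strand, was present in the windows of Ccn1 and Ccn2, against 8.06% of all windows. The exact CArG letters CCWWWWWWGG (W is A or T) were present in 1 of the 8, that of Cnn2, against 1.5% of all windows. Near matches were not counted, and the Acta2 window holds sites that differ from those letters by 1 base. The AP-1 letters TGANTCA were present in 0 of the 8, against 6.34%. These are matches of letters in short windows and do not show that a factor binds there.

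Values are log2 of the processed signal relative to the 75th percentile of the same array, so 0 is the level of that percentile, and changes are miR-125a-3p minus miR-neg. The comparison asks how these transcripts differ after the mimic. Of the 9 genes measured, 4 rose after the mimic in limma, a test that shares the estimate of spread across features (Benjamini-Hochberg adjusted p under 0.05 over 23155 features), and 0 fell. They were the matricellular genes Ccn2 and Ccn1, the actin-binding gene Tagln and the tropomyosin gene Tpm2. Over all features 0.38% were called higher, 0.307% lower and 0.687% in either direction. Acta2, Cnn1, Tpm1, Tpm4 and Myl9 did not pass. The Tpm2 probe passed the filter on dim probes through the mimic arrays alone, and on probes well above background on all 4 arrays the count was 3 of 7. The median change of the 9 genes was 0.38, with values from -0.22 to 2.52, against a median of 0.01 over all features. The upper end is that of Tpm2, whose control signals were at background, and it was 0.35 with normexp background correction. That correction was run with an offset of 50 units added to every signal, which by itself makes the log2 changes of dim probes smaller.

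The arrays of the 2 groups did not overlap for 7 of the 9 genes, 6 higher and 1 lower after the mimic. Over all features the groups did not overlap in 52.9%, 28.7% higher and 24.1% lower, so a lack of overlap is common on this array. All 4 calls ended when any 1 of miR-125a-3p replicates 1 and 2 and miR-neg replicates 1 and 2 was left out, which ended every call on the array, and also with a block on replicate number or without the filter on dim probes. Under quantile normalization the whole-array count was 37 higher and 46 lower, against 88 and 71 here.

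**Figure D1:**
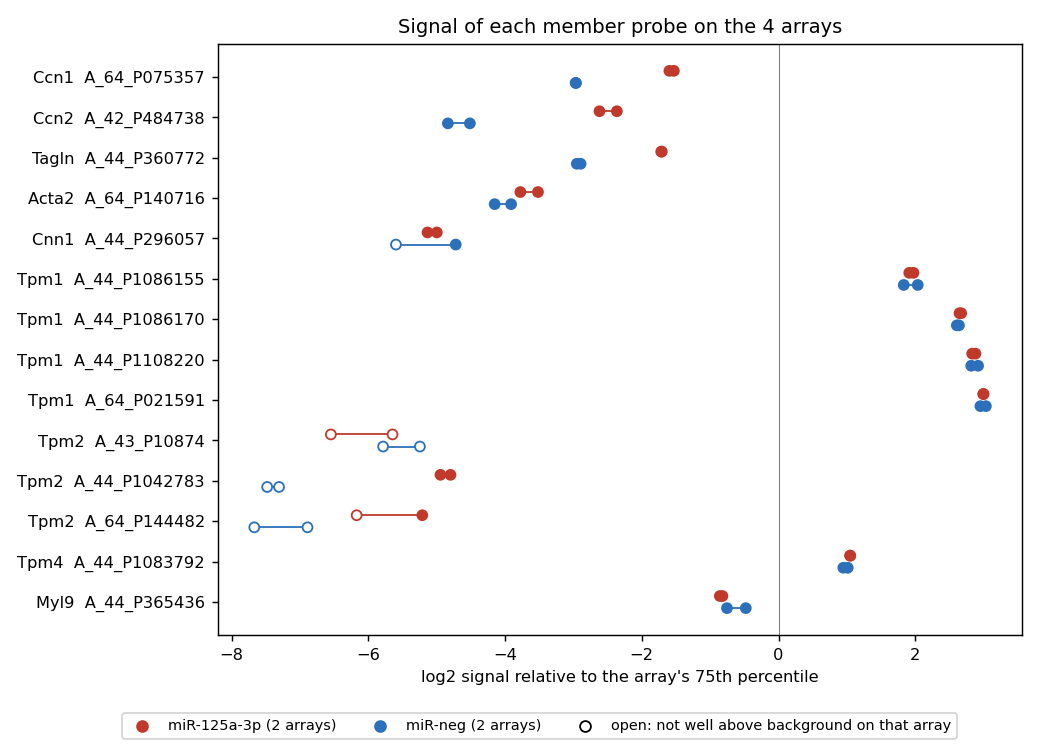
Log2 signal of each of the 14 probes on the 4 arrays, relative to the array's 75th percentile, with miR-125a-3p arrays in red above miR-neg arrays in blue and open points where the spot was not well above background. Ccn1, Ccn2, Tagln and Tpm2 probe A_44_P1042783 stand clear of the miR-neg arrays, while the 4 Tpm1 probes lie together between 1.83 and 3.03.

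The CCN genes encode secreted, cysteine-rich proteins that bind integrins and heparan sulphate in the matrix. Ccn2 lay at -2.62 and -2.36 on the miR-125a-3p arrays, against -4.84 and -4.51 on the miR-neg arrays. Both mimic samples were above both control samples, and the gap of 1.89 between the groups was wider than the distance between the arrays of either group. The change was 2.18 (SE 0.16, n = 2 per group), which is 4.54-fold, and it was 2.22 between the arrays numbered 1 and 2.15 between those numbered 2. In processed signal Ccn2 had 114 and 139 units after the mimic, against 26.1 and 29.7 in the controls. The control signals were dim but well above background on both arrays. The probe was printed in 10 spots, whose log2 values had an SD of 0.03 and 0.10 on the mimic arrays and 0.33 and 0.19 on the control arrays. Under normexp background correction, with its offset of 50 units, the change was 0.95, which is 2.29 times smaller, and the call remained. Quantile normalization left the size at 2.17 and ended the call (adjusted p = 0.0539 in limma, where the adjusted p ranged from 0.000353 to 0.23 over the alternatives).

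Ccn1, the other member of the family that was measured above background, lay at -1.53 and -1.60 after the mimic and at -2.97 and -2.96 in the controls. Both mimic arrays were above both control arrays, which nearly coincided, and the groups were 1.37 apart at their nearest. The change was 1.40 (SE 0.08, n = 2 per group), a 2.64-fold difference, with 243 and 237 units of processed signal against 95.3 and 87.2. This probe was also printed in 10 spots, with an SD on the log2 scale of 0.07 and 0.05 on the mimic arrays and 0.14 and 0.13 on the control arrays. Normexp gave a change of 0.93, 1.51 times smaller.

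The 4 other CCN genes on the array, Ccn3, Ccn4, Ccn5 and Ccn6, were well above background on 0 of 4 arrays and were not tested. Ccn4 lay at -5.92 and -6.71 after the mimic, against -7.42 and -7.62 in the controls, all signals too dim to give a fold. Within the CCN family the comparison could thus be made for Ccn1 and Ccn2.

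Among the actin-associated genes, Tagln encodes transgelin (SM22), an actin-binding protein abundant in smooth muscle. It lay at -1.72 and -1.71 on the miR-125a-3p arrays, against -2.89 and -2.95 on the miR-neg arrays. The arrays within each group almost coincided, and the groups were 1.18 apart at their nearest. Tagln rose by 1.21 (SE 0.08, n = 2 per group), which is 2.31-fold, from a probe printed in 2 spots. With normexp the change was 0.80, which is 1.52 times smaller.

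Acta2, the smooth muscle alpha-actin gene, lay at -3.78 and -3.52 after the mimic and at -4.15 and -3.91 in the controls. The groups did not overlap, but the nearest arrays were only 0.14 apart, less than the distance between the arrays within a group. The change of 0.38 (SE 0.14, n = 2 per group) did not pass, and it was 0.14 with normexp and 0.26 without miR-125a-3p replicate 2. Between arrays of the same number it was 0.38 and 0.39.

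Calponin 1, encoded by Cnn1, binds actin and restrains the myosin ATPase of smooth muscle. Its values were -5.00 and -5.13 after the mimic, against -4.72 and -5.60 in the controls. The mimic arrays lay between the control arrays, of which 1 was not well above background. The change was 0.09 (SE 0.32), and its sign turned to -0.34 without miR-neg replicate 2, so no direction can be given for this gene.

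Myl9, which encodes a regulatory light chain of smooth muscle and non-muscle myosin, was the 1 member below 0. It lay at -0.86 and -0.82 after the mimic and at -0.75 and -0.48 in the controls. Both mimic arrays were below both control arrays, but the change of -0.22 (SE 0.12) did not pass. The control arrays themselves differed by more than the change, which was -0.36 without miR-neg replicate 1 and -0.09 without miR-neg replicate 2.

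Tropomyosins are coiled-coil proteins that lie along actin filaments and set which myosins and severing factors can reach them. The Tpm2 gene, best known from smooth and skeletal muscle, had 3 probes, and its call rests on A_44_P1042783, the probe that was kept. That probe lay at -4.80 and -4.94 on the miR-125a-3p arrays, against -7.31 and -7.48 on the miR-neg arrays, where it was not well above background. Its signal was thus measured in the mimic samples, at 25.2 and 23.3 units, against 4.71 and 3.81 units that are at the floor of the array. Tpm2 was at least 2.47-fold higher after the mimic by that probe. This bound sets the mimic mean against, on each control array, the lowest signal of any probe well above background, or the probe's own signal where that was higher. Some probes with signals over that lowest one were not well above background, so the bound is not a strict limit. The fitted change was 2.52 (SE 0.11, n = 2 per group), and 0.35 with normexp, where the call remained.

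The second Tpm2 probe, A_64_P144482, matched another transcript of the gene and lay at -5.21 and -6.17 after the mimic, against -6.89 and -7.67 in the controls. Its signal cleared background on a single mimic array, and no fold is given for it. The remaining probe, A_43_P10874, matched the same transcript as the first and lay at -6.55 and -5.65 after the mimic, against -5.24 and -5.78 in the controls. Its groups overlapped, and it was well above background on 0 of 4 arrays. Without the filter on dim probes the remaining probe stood for Tpm2, and the gene's change was then -0.58. The increase of Tpm2 therefore rests on 1 of its 3 probes.

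Tpm1, which encodes the alpha tropomyosins, gave bright signals that differed little between the groups. The probe that stands for the gene lay at 2.99 and 3.00 after the mimic and at 2.95 and 3.03 in the controls, a change of 0.00 (SE 0.08). Over the 4 probes, all well above background on all 4 arrays, the change ran from -0.01 to 0.04. Tpm4, a non-muscle tropomyosin gene, lay at 1.05 on both mimic arrays, against 0.95 and 1.01 in the controls, and its change of 0.07 (SE 0.08) did not pass. Tpm3, a tropomyosin gene outside the list, had 7 probes, of which 5 were well above background on all 4 arrays. All 5 lay below 0, from -0.21 to -0.10, and the probe standing for the gene did not pass (-0.20, SE 0.11, limma adjusted p = 0.389). Of the tropomyosin genes on the array, Tpm2 was called and Tpm1, Tpm3 and Tpm4 were not. These differences between genes were not tested.

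**Figure D2:**
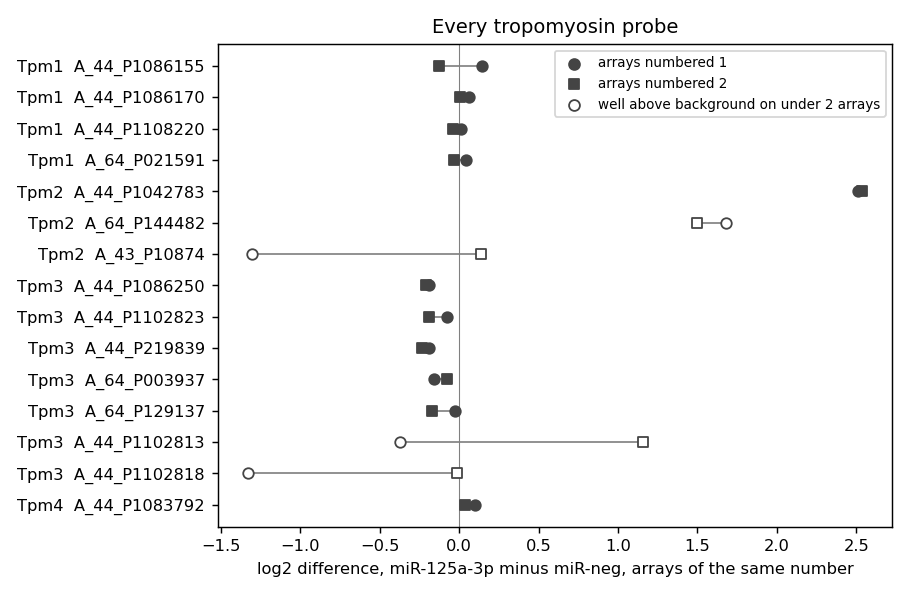
Log2 difference between the miR-125a-3p and the miR-neg array of the same number, for every probe of the 4 tropomyosin genes, with open points for probes well above background on under 2 arrays. The kept Tpm2 probe lies at 2.51 and 2.53, and the probes of Tpm1, Tpm3 and Tpm4 that were above background on all 4 arrays all lie close to 0.

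The genes whose values over the 4 arrays were nearest to those of the called members were found by the distance between mean-centred log2 values. For Ccn2 they were Lcn2, a siderophore-binding protein gene (distance 0.0905, change 2.15), the proton pump subunit gene Atp6v1c2 (0.145, change 2.06) and Tm4sf1, a tetraspan membrane protein gene (0.237, change 2.06). For Ccn1 they were Rassf4 (0.116, change 1.37), the iron reductase gene Cybrd1 (0.132, change 1.35) and Cyba, which encodes a subunit of the NADPH oxidase (0.146, change 1.31). For Tagln they were C1qtnf6 (0.0442, change 1.20), Eva1b (0.0883, change 1.20) and the cyclin B1 gene Ccnb1 (0.0964, change 1.16). With 2 groups of 2 arrays this likeness is little more than a change of the same size, and these genes were picked for it. Atp6v1c2 and Tm4sf1 were well above background on the mimic arrays only. By the bound described for Tpm2, Atp6v1c2 rose at least 2.00-fold. For Tm4sf1 the bound equals the fitted change, 4.16-fold, since its control signals lay above the lowest signal counted as above background. No separate lower limit can thus be given for Tm4sf1. With normexp the changes of Atp6v1c2 and Tm4sf1 were 0.18 and 0.50, which ended the Atp6v1c2 call. Normexp also made the C1qtnf6 and Eva1b changes 1.52 and 1.64 times smaller.

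Other genes of the contractile apparatus showed few calls. Of 21 listed relatives (other actins, calponin 3, transgelins 2 and 3, myosin light chains and smooth muscle proteins) 18 were tested, 0 rose, 1 fell and 17 did not pass, with a median of 0.01. The gene that fell was Mylk, which encodes the kinase that phosphorylates the myosin regulatory light chain. It lay at -4.83 and -4.61 on the miR-125a-3p arrays, against -3.13 and -3.17 on the miR-neg arrays. Both mimic arrays were below both control arrays, and the arrays of each group lay close together. The change was -1.57 (SE 0.11, n = 2 per group, limma adjusted p = 0.0373). With normexp it was -0.66, 2.38 times smaller, and still called. Quantile normalization ended the call (adjusted p = 0.0515, in a range from 0.00172 to 0.23 over the alternatives), as did leaving out any 1 array.

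Other genes of that list did not pass. Tagln2 was at 0.50 (SE 0.09, limma adjusted p = 0.0978), Csrp1, a LIM-domain gene of smooth muscle, at -0.39, and the smooth muscle genes Smtn and Csrp2 at 0.27 each. Csrp1 passed with normexp (-0.35, adjusted p = 0.0314), where Tagln2 was at 0.25. The cytoplasmic actin genes Actb and Actg1 were at -0.12 and -0.07, and calponin 3, encoded by Cnn3, at 0.14. Myh11, the smooth muscle myosin heavy chain gene that defines mature smooth muscle, was at 0.26 (SE 0.17) with overlapping groups. Actg2, the other smooth muscle actin gene, was well above background on 0 of 4 arrays.

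Genes known as targets of MRTF and serum response factor gave 1 increase and 0 decreases among 19 tested, with 18 not past the threshold and a median of -0.05. The gene that rose was Arhgdib, a gene known mainly from blood cells, at 1.34 (SE 0.11, adjusted p = 0.0444 in limma). It was well above background on 2 of 4 arrays, both after the mimic, with values of -4.58 and -4.39, against -5.90 and -5.74 in the controls. For Arhgdib the same bound equals the fitted change, 2.52-fold, for the reason given for Tm4sf1, so no separate lower limit can be given. Normexp made its change 0.26 and ended the call (adjusted p = 0.0976), as did quantile normalization (adjusted p = 0.0697), in a range from 0.0381 to 0.242, and so did each array left out. The LIM-domain gene Fhl1 was at 0.43, alpha-actinin 1 (Actn1) at 0.36, Tes at 0.29 and Zyx, which encodes the focal adhesion protein zyxin, at -0.27, and none passed. With normexp Fhl1 passed (0.43, adjusted p = 0.0156). Srf itself, also in this list, was at -0.15 (SE 0.08, adjusted p = 0.365). Acta2, Tagln and Cnn1, of which Tagln was called, were kept out of this list because they are members.

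Genes known as targets of YAP, TAZ and TEAD gave 0 calls in limma among 13 tested (median -0.01), with 5 at an unadjusted p under 0.05, against 19.5% of all features. Those nearest the threshold were the secreted protein gene Ccdc80 at 0.75 (SE 0.09, adjusted p = 0.0615), the growth arrest gene Gadd45a at -0.49 (SE 0.08, adjusted p = 0.0903), Nt5e, which encodes the ecto-nucleotidase CD73, at -0.37, and the kinase gene Nuak2 at -0.54. The signs among these 4 were mixed, and Nuak2 was at -0.32 without miR-neg replicate 1 and at -0.27 with normexp. Ccdc80 passed with normexp (0.37, adjusted p = 0.025), and Gadd45a passed too (-0.49, adjusted p = 0.00591). Amotl2 and Lats2, feedback genes of the Hippo pathway, were at 0.08 and 0.11, and Ankrd1 and Axl were well above background on 0 of 4 arrays. Ccn1 and Ccn2 were kept out of this list because they are members.

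Genes of TGF-beta signalling, a pathway known to induce Ccn2, Acta2 and Tagln in fibroblasts, gave 0 calls in limma among 8 tested (median 0.01), with 4 at an unadjusted p under 0.05. Bgn, the proteoglycan gene biglycan, was at 0.77 (SE 0.08, adjusted p = 0.0535), the ligand gene Tgfb3 at 0.53, the inhibitory Smad7 at -0.38 and the latency protein gene Ltbp1 at 1.11 (SE 0.32). Tgfb1 was well above background on 0 of 4 arrays. With normexp Bgn passed (0.68, adjusted p = 0.00131), as did Tgfb3 (0.32, adjusted p = 0.0483), and Ltbp1 was at 0.36. Of 21 listed regulators 14 had a paired probe. Mrtfa, Mrtfb, Yap1, Tead4 and Rock1 were among those without 1 and have no value here. Of the 12 regulators tested, among them Tead1 and Tead3, 0 were called in limma (median 0.06). The TEAD cofactor gene Vgll4 (0.40) was the 1 regulator at an unadjusted p under 0.05, and it passed with normexp (0.43, adjusted p = 0.021). Cfl1, Ppp1r12a and Wwtr1 came next at -0.18, -0.27 and 0.46. Wwtr1, the gene of TAZ, was above background on 3 arrays, with an SE of 0.26, and was at 0.13 with normexp.

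**Figure D3:**
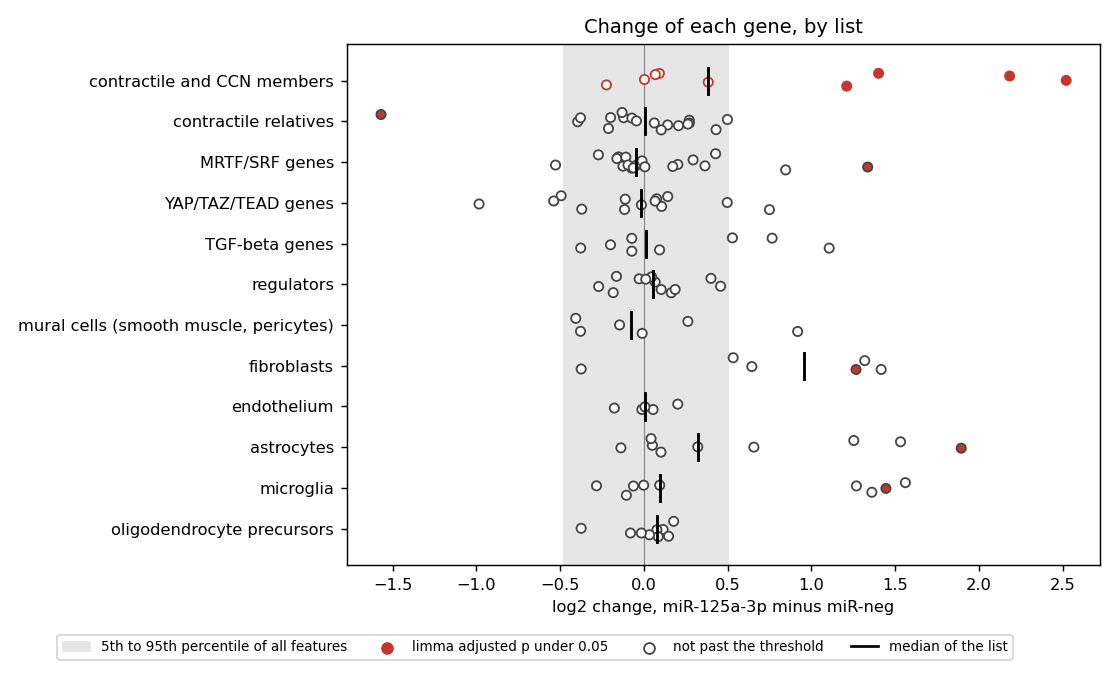
Log2 change, miR-125a-3p minus miR-neg, of each tested gene by list, with filled points past a limma adjusted p of 0.05, a bar at the list's median and grey for the 5th to 95th percentile of all features. The 4 called members lie at 1.21 or above, while the medians of the 5 pathway lists lie between -0.05 and 0.06.

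Ccn2, Tagln, Acta2 and Tpm2 are also expressed by pericytes, smooth muscle and fibroblasts, and in RNA from a mixed culture more such cells and more RNA per cell cannot be told apart. Of 10 markers of mural cells, 6 were tested and 0 were called in limma (median -0.08, 2 at an unadjusted p under 0.05). Their summed signal, as a multiple of the 75th percentile, was 1.94 and 2.11 after the mimic, against 2.38 and 2.57 in the controls. Pdgfrb, the pericyte receptor gene, was well above background on the mimic arrays only and did not pass (0.92, limma adjusted p = 0.103). The bound described for Tpm2 was 0.89 for Pdgfrb, or 1.86-fold, which is nearly the fitted change. Its control signals lay near or above the lowest signal counted as above background, so the bound is hardly a separate lower limit. With normexp, whose offset makes changes of dim probes smaller, Pdgfrb was at 0.11 (limma adjusted p = 0.513). Mcam, which gave most of the sum, was at -0.41. It passed as lower with normexp (-0.38, limma adjusted p = 0.0309) and with a variance trend (limma adjusted p = 0.0182). Kcnj8, Abcc9 and Higd1b were well above background on 0 of 4 arrays. Without Mcam the sum was 0.440 and 0.477 after the mimic, against 0.383 and 0.427 in the controls. The part of mural RNA in the increases of the 4 members was not tested.

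Of 11 fibroblast markers 6 were tested, with a median of 0.96, and all 6 had an unadjusted p under 0.05 in limma. Of these, 5 were higher after the mimic and 1, Pdgfra, was lower (-0.37). Col6a2, above background on 1 of the 2 control arrays, rose by 1.27 (SE 0.08, limma adjusted p = 0.0373), and Col1a1 (1.42), Col3a1 (1.32) and Col1a2 (0.64) did not pass. With normexp these 4 collagen genes were at 0.37, 0.84, 0.35 and 0.42, and all 4 passed. The list's summed signal was 36.8 and 38.8 after the mimic, against 47.7 and 47.9 in the controls. Pdgfra, which precursor cells also express, made up 97.8% of this list's summed signal on miR-neg replicate 1. Without it the sum was 1.54 and 1.77 after the mimic, against 1.05 and 1.02 in the controls. Dcn, Lum, Fap and Vtn were well above background on 0 of 4 arrays. The part of fibroblast RNA in the increases of Ccn2, Ccn1, Tagln and Tpm2 was not tested.

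Endothelial markers gave 0 calls among 5 tested in limma (median 0.01, 0 at an unadjusted p under 0.05), with sums of 3.83 and 3.95 after the mimic, against 3.31 and 3.77 in the controls, and Pecam1, Tie1 and Emcn at background on 4 of 4 arrays. Vwf (0.20) gave most of the endothelial sums. Astrocyte markers gave 1 increase among 9 tested, Aldh1l1 at 1.89 (limma adjusted p = 0.0333), with a median of 0.32, 5 at an unadjusted p under 0.05, and sums of 207 and 210 after the mimic, against 184 and 196 in the controls. Aqp4 (1.53), Gja1 (1.25) and Gfap (0.66) were also higher without overlap but did not pass. Slc1a3 (0.32), Aldoc (0.10) and Slc1a2 (0.05) were higher without overlap by less, and S100b (0.04) had overlapping groups. Fgfr3 was lower without overlap (-0.14), and none of them passed. With Aldh1l1, 7 of the 9 astrocyte markers were higher without overlap and 1 lower, against 28.7% and 24.1% of all features. Aldoc, at 7.43 and 7.45 after the mimic and 7.29 and 7.38 in the controls, gave most of the astrocyte sums. Gjb6 was the astrocyte marker at background. Microglial markers gave 1 increase among 9, C1qa at 1.44 (limma adjusted p = 0.0373), with a median of 0.09, 4 at an unadjusted p under 0.05, and sums of 4.37 and 4.85 after the mimic, against 3.92 and 4.50 in the controls. Aif1 (1.56), Tyrobp (1.36) and C1qb (1.27) were also higher without overlap but did not pass. Itgam (0.09), P2ry12 (-0.0008), Cx3cr1 (-0.06) and Tmem119 (-0.10) had overlapping groups, Cd68 was lower without overlap (-0.28), and none of them passed. With normexp Aqp4, Gja1, Gfap, Aif1, Tyrobp and C1qb all passed, with changes from 0.62 (Gfap) to 1.36 (Aqp4). The part of astrocyte and microglial RNA in the increases of the 4 members was not tested.

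**Figure D4:**
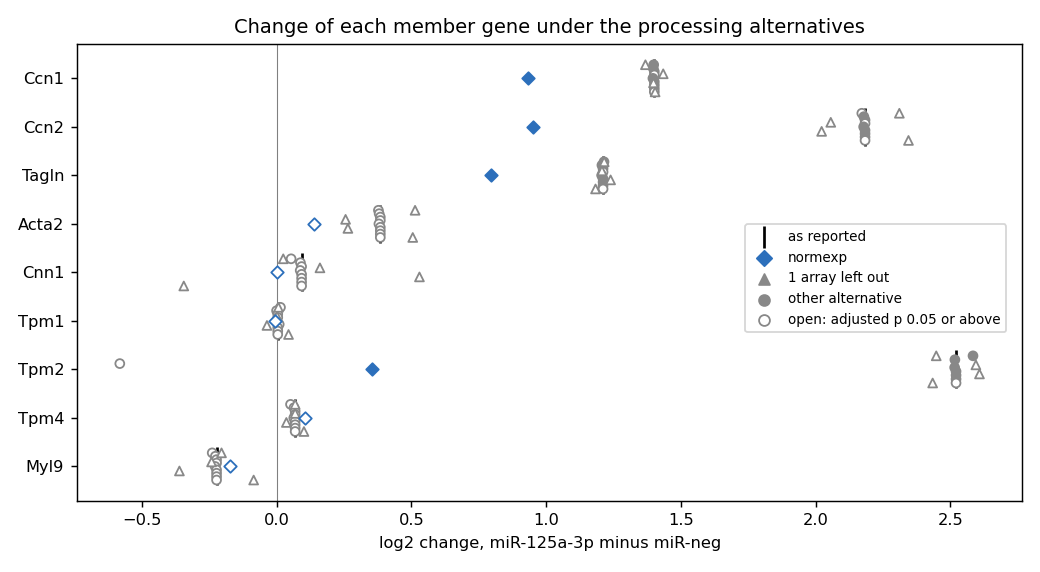
Log2 change of each of the 9 genes as reported (black bar) and under 14 processing alternatives, with filled points where the adjusted p was under 0.05. Normexp (blue) brings Ccn2, Tpm2, Ccn1 and Tagln to 0.95, 0.35, 0.93 and 0.80, and leaving out 1 array keeps their size but leaves every point open.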

How the data were processed

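Per the file headers, the deposited intensities were background-subtracted and detrended with Feature Extraction 10.7.3.1 from Agilent. The authors also deposited log2 values, which equalled the log2 processed intensity minus a constant for each array. Their scale, centring and direction are therefore known. Their medians by column were -4.08 and -4.14 for miR-125a-3p and -4.075 and -4.15 for miR-neg.

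Control spots and flagged spots were left out, spots of a probe were averaged as log2 values, and values were taken relative to the 75th percentile of the array. Of 45598 probes, 27250 had values on all arrays and were well above background on at least 2 of them, and 65 were left out for flagged spots. RefSeq (GRCr8) symbols were paired with 21109 probes (46.3%). The probe with the highest mean stood for its gene, which left 23155 features. The test was limma 3.58.1 (R 4.3.3), with lmFit and eBayes, two-sided, adjusted by Benjamini-Hochberg. Exact permutation of 2 against 2 cannot go below p = 0.333. The test was checked on simulated normal values in which every probe counted as above background and slide position had no effect. That check does not cover dim probes or position.

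Members and lists were chosen with earlier results of these data known. The naming rule took all probes of the members, each list's called genes and up to 4 others of smallest p, and 3 genes nearest to each of Ccn2, Ccn1 and Tagln. Genes named beyond it were chosen after their values were seen. Mean spot signals are not used here, and the normexp alternative was run on median signals with an offset of 50 units. Running it on medians was a choice made after seeing the data.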

Additional observations from a re-analysis of the deposited data

How the results depend on the processing

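The count of 4 called members was 3 or 4 in 8 of 14 alternatives and 0 in the other 6, with 0 called lower in each. It was 0 without the filter on dim probes (3 at an unadjusted p under 0.05 in limma) and with the replicate block. With 1 array left out, counts for the members, the whole array and the pathway lists ranged from 0 to 0 in limma. There 4 to 6 members, 2748 to 4116 features and 10 to 18 pathway genes had an unadjusted p under 0.05, and a lone array is assumed to vary like the other group. Same-numbered arrays had deviations correlated at 0.0505, and 2 pairs are too few to settle a pairing. The block has 1 residual degree of freedom, and its smallest adjusted p was 0.0641 in limma, with 5 members and 3968 features at an unadjusted p under 0.05. A block on the slide axis shared by the groups is the same fit, and one on the other axis could not be fitted.

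The whole-array count of 159 became 1601 with normexp, 83 with quantile normalization, 613 on probes above background on all 4 arrays, 2048 with a variance trend, and 0 with the block or without the filter (3956 at an unadjusted p under 0.05 in limma for the last). It lay between 142 and 205 with robust variances, with probes of a gene averaged, with the deposited values and with median centring. The 2 called genes of the pathway lists became 9 with normexp, 0 with quantile normalization, 11 with a variance trend, and 0 without the filter or with the block. Those 3 counts of 0 in limma had 17, 13 and 17 genes at an unadjusted p under 0.05. For those lists the alternatives other than quantile normalization, median centring and the stricter filter were added after seeing the data, as was normexp throughout.

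The members Ccn1, Ccn2, Tagln, Acta2, Tpm4 and Myl9 kept their direction in all 14 alternatives. Tpm2 changed by -0.58 without the filter, where another probe stood for it. Cnn1 was at 0.00 (-0.0002) with normexp and ranged from -0.34 to 0.53 with 1 array left out, and Tpm1 was at -0.0064 with normexp, -0.0006 with median centring, -0.0015 with the deposited table and between -0.0363 and 0.0438 with 1 array left out. Of the 53 other genes run through the alternatives, 1 reversed, Amotl2, at -0.0085 without miR-neg replicate 1 (range -0.0085 to 0.16 with 1 array left out). For 22 of the 53, named beyond the rule, this was added after seeing the data. For all these shifts the cause was not tested. Signal at or near background limits Tpm2 and Cnn1.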
